A study of Mus musculus with 2 samples.

Results

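The genes described here encode the proteins of the mitochondrial ribosome, which Agilent names Mrpl for the large subunit and Mrps for the small subunit. They were taken as every non-control probe whose gene name on the array begins with Mrpl or Mrps and goes on with a number and at most 1 letter, which gave 77 of 37074 gene names (48 Mrpl and 29 Mrps), on 119 of 56605 probes. All 77 names were symbols in the RefSeq gene table, and the 99 probes whose accession was found there carried the same symbol. RNA came from macrophages of the abdominal (peritoneal) cavity, taken from WT mice or from MeXis null mice, which lack the long noncoding RNA MeXis. The strain was given as bl6 for both, the cells were kept in DMEM with serum, and no ligand or other treatment, age or sex was given. The study asks how MeXis bears on macrophage cholesterol efflux. Each genotype was measured on 1 one-colour array that held RNA pooled from 3 samples, so no array was replicated, genotype could not be tested and no p-value is given. Each difference compares 1 array with the other.

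Mitochondria keep a ribosome of their own that translates only the few messages of mitochondrial DNA, all of which encode subunits of the respiratory chain and ATP synthase. Its ribosomal RNAs are mitochondrial transcripts, while its proteins are encoded in the nucleus, translated in the cytosol and imported, so a working particle depends on many nuclear genes at once. The small subunit binds the message and decodes it, and the large subunit joins the amino acids and holds the exit tunnel at the inner membrane, into which the hydrophobic products are inserted. In macrophages, mitochondrial respiration is known as a property that differs between activation states.

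Signals are Agilent processed signals on a linear scale, differences are on the log2 scale and taken as MeXis null minus WT after each array was scaled to its 75th percentile, and a gene is represented by its brightest probe. A gene was counted as higher or lower where it differed by at least 1.5-fold (0.58 on the log2 scale) and beyond the 95% limit of the scanner's own error, which had a median of 0.21. A wider measure came from 285 probes printed several times on each array, whose difference between the arrays varied with a median SD of 0.47 among spots of the same probe, giving a 95% limit of 0.91 (1.88-fold). The scanner software placed 28463 of 59305 non-control spots (48.0%) well above background on WT, and 26257 (44.3%) on MeXis null. The 1 probe for MeXis (AI427809 on the array) was below the software's detection limit on both arrays (signals of 12.3 and 8.44), so it could not check the labels. Of the macrophage markers, 13 of 15 were well above background on both arrays, among them Adgre1, Cd68 and Csf1r. Of these 4 were higher, Lyz2 (1.23) the highest, and 3 lower, Mertk (-1.96) the lowest, with a median difference of 0.08 and summed signals of 332594 on WT and 479221 on MeXis null.

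All 76 measured Mrp genes were well above background on both arrays, against 15482 of 36987 gene names (41.9%) in all. The gene not measured was Mrpl3, a large-subunit protein, whose only probe was marked as an outlier spot on WT. Its signals were 1936 on WT and 3191 on MeXis null, a difference of 0.62 if the mark is set aside. Across the 76 genes the median difference was 0.17, with quartiles of -0.10 and 0.46, beside 0.04, -0.35 and 0.44 for all genes, and 50 genes lay above 0 and 26 below. The Mrp genes were spread less widely than all genes, with an interquartile range of 0.559 against 0.788, and fewer were dim: 75 of 76 had a signal of at least 100 on both arrays, against 12478 of 15482. By the 1.5-fold rule 15 Mrp genes (19.7%) were higher in MeXis null, close to the 18.2% of all genes, and 4 (5.26%) were lower, against 14.2% of all genes. The other 57 were within the rule's limits. At 2-fold 6 were higher and 0 lower, where 7.34% and 4.77% of all genes were counted. Past the limit set by replicate spots 9 were higher and 3 lower, where 9.08% and 6% of all genes were. The summed signal of the Mrp genes, not scaled between the arrays, was 265926 on WT and 322627 on MeXis null. Over all 36987 gene names the same sum was 7.08e+07 on WT and 7.67e+07 on MeXis null. The sums given for lists of markers are likewise not scaled. In RNA of a mixed cell population, fewer cells of a type and less RNA per cell cannot be told apart.

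**Figure D1:**
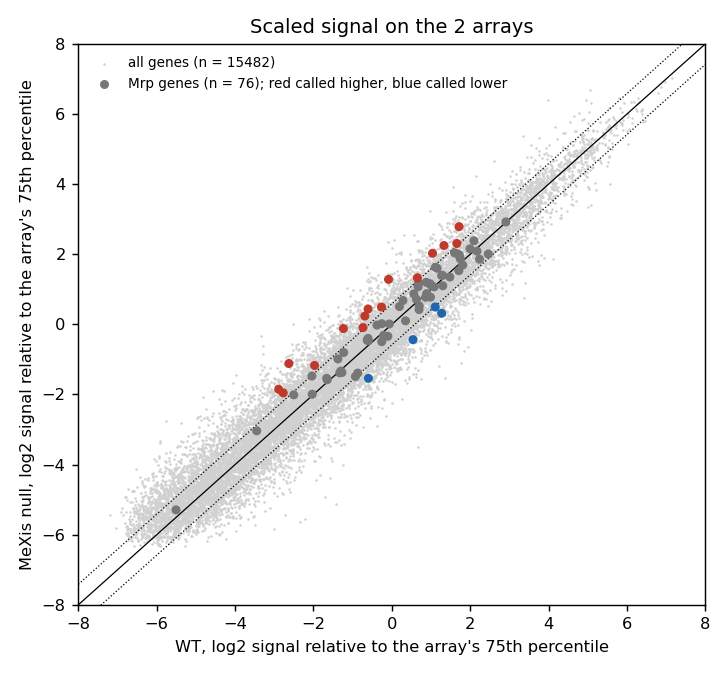
Scaled signal of each gene on WT (x axis) and MeXis null (y axis), both as log2 relative to the array's 75th percentile, for 15482 genes (grey) and 76 Mrp genes (larger points, red where counted higher, blue where counted lower); the dotted lines mark a 1.5-fold difference. The 15 higher Mrp genes lie above the upper dotted line and the 4 lower ones below the lower line, and both sit within the cloud of all genes.

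Markers of other cells differed between the arrays beside these values. Of the fibroblast markers 9 of 12 were above background on both arrays and 6 of those were higher in MeXis null, with summed signals of 8535 on WT and 15353 on MeXis null, while Fap (53.9 and 10.8) and Lum (130.5 and 40.3) passed the background limit only on WT. All 9 mesothelial markers were above background on both and 6 were higher (summed signals 1028 and 2478), and of the cell cycle genes 12 of 17 were higher and 2 lower (summed signals 30971 and 39781). B cell markers went the other way, with 4 of 6 lower and 0 higher (summed signals 3871 and 2519), and of the 7 eosinophil markers Ear1, Ear2 and Il5ra passed the background limit only on WT, Siglecf (2429.85 and 1538) did so on both arrays and was lower, and Epx, Prg2 and Ccr3 did so on neither. Of 10 T and NK cell markers 4 were above background on both arrays, 1 of them lower, with summed signals of 1107 and 1034. The neutrophil markers summed to 20289 and 13364, most of it from Csf3r (18755 and 11696). Of the 7 markers 4 were above background on both arrays, and Csf3r was the 1 lower gene. S100a8 (438 and 338), Elane (803 and 977) and Mmp8 (249 and 291) were not counted. S100a9 and Ly6g were above background on neither array. The mast cell markers Cma1 (60.6 and 8.24) and Cpa3 (37.1 and 6.32) passed the limit only on WT, Tpsb2 (252 and 325) and Hdc (51.5 and 43.9) on both, and Kit and Mcpt4 on neither, and the list summed to 424 and 413. The part of these cells in the Mrp differences was not tested.

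Among the 47 measured Mrpl genes the median difference was 0.21, and 11 (23.4%) were higher and 3 (6.38%) lower in MeXis null, where 18.2% and 14.2% of all genes were. The 5 furthest above 0 were all more than 2-fold higher. Mrpl38, a large-subunit protein without a bacterial counterpart, had a WT signal of 339 and a MeXis null signal of 1028, a difference of 1.51 (2.85-fold), from a probe at chr11:115993268-115993327 (mm9). A second Mrpl38 probe, also well above background on both arrays, gave 258 and 449, a difference of 0.71, and the last one passed the background limit on the WT array alone, with signals of 76.8 and 38.02. Mrpl54, another mitochondrion-specific protein, had signals of 1975 and 5427 (1.37, 2.58-fold). Mrpl28 and Mrpl33 are homologues of bacterial large-subunit proteins. For Mrpl28 the signals were 888 and 2053 (1.12), and for Mrpl33 they were 6879 and 15389.5 (1.07). Mrpl16, whose bacterial homologue lies close to the site where tRNAs bind, gave 1374 on WT and 3022 on MeXis null (1.05). In each of these 5 genes the MeXis null signal was the higher one by more than the limit set by replicate spots.

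The other 6 higher Mrpl genes lay inside that limit. Mrpl19, Mrpl9, Mrpl34, Mrpl41, Mrpl14 and Mrpl15 had differences of 0.82, 0.80, 0.76, 0.68, 0.65 and 0.64, with WT signals from 306 for Mrpl19 to 6609.68 for Mrpl14. Mrpl9 and Mrpl15 each had a second probe, and these gave 0.90 and 1.22.

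Mrpl36, the homologue of the smallest bacterial large-subunit protein, was the lowest of all Mrp genes, with signals of 3044 on WT and 1649 on MeXis null (-0.98, 1.97-fold lower). Mrpl46 had 1384 on WT and 766 on MeXis null (-0.94). Both were past the limit set by replicate spots, and each had 1 probe. Mrpl27, whose bacterial homologue reaches into the catalytic centre, gave 4506 and 3146 (-0.61), inside that limit, and its 3 probes above background on both arrays ran from -0.61 to 0.20. Below 0 but short of 1.5-fold were Mrpl1, a protein of the mobile stalk near the tRNA exit (1099 and 795, -0.56), and Mrpl10 (1145 and 850.4, -0.52).

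Genes of the stalk that recruits translation factors lay on both sides of 0. Mrpl10 anchors it, Mrpl12 forms its arms and is also known to bind the mitochondrial RNA polymerase, and Mrpl11 lies at its base. Against the -0.52 of Mrpl10, Mrpl12 had signals of 3849 and 5122 (0.32) and Mrpl11 had 4664 and 6766 (0.45), and none of the 3 reached 1.5-fold. Mrpl45, which holds the particle at the inner membrane, had 2669 and 2391 (-0.25), and Mrpl44, which contains a ribonuclease fold, had 1382 and 1614 (0.13). Mrpl18 gave 1609 and 2197 (0.36). The 4 Mrp probes with the highest WT signal belonged to Mrpl20, Mrpl57, Mrpl43 and Mrpl2. Mrpl20 had 15757 and 16904 (0.01), Mrpl57 had 11536 and 8968 (-0.45), Mrpl43 had 9876 and 8082 (-0.38), and Mrpl2, a homologue of a protein of the bacterial catalytic centre, had 9443 and 9483 (-0.08). None of these 4 was counted in either direction.

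**Figure D2:**
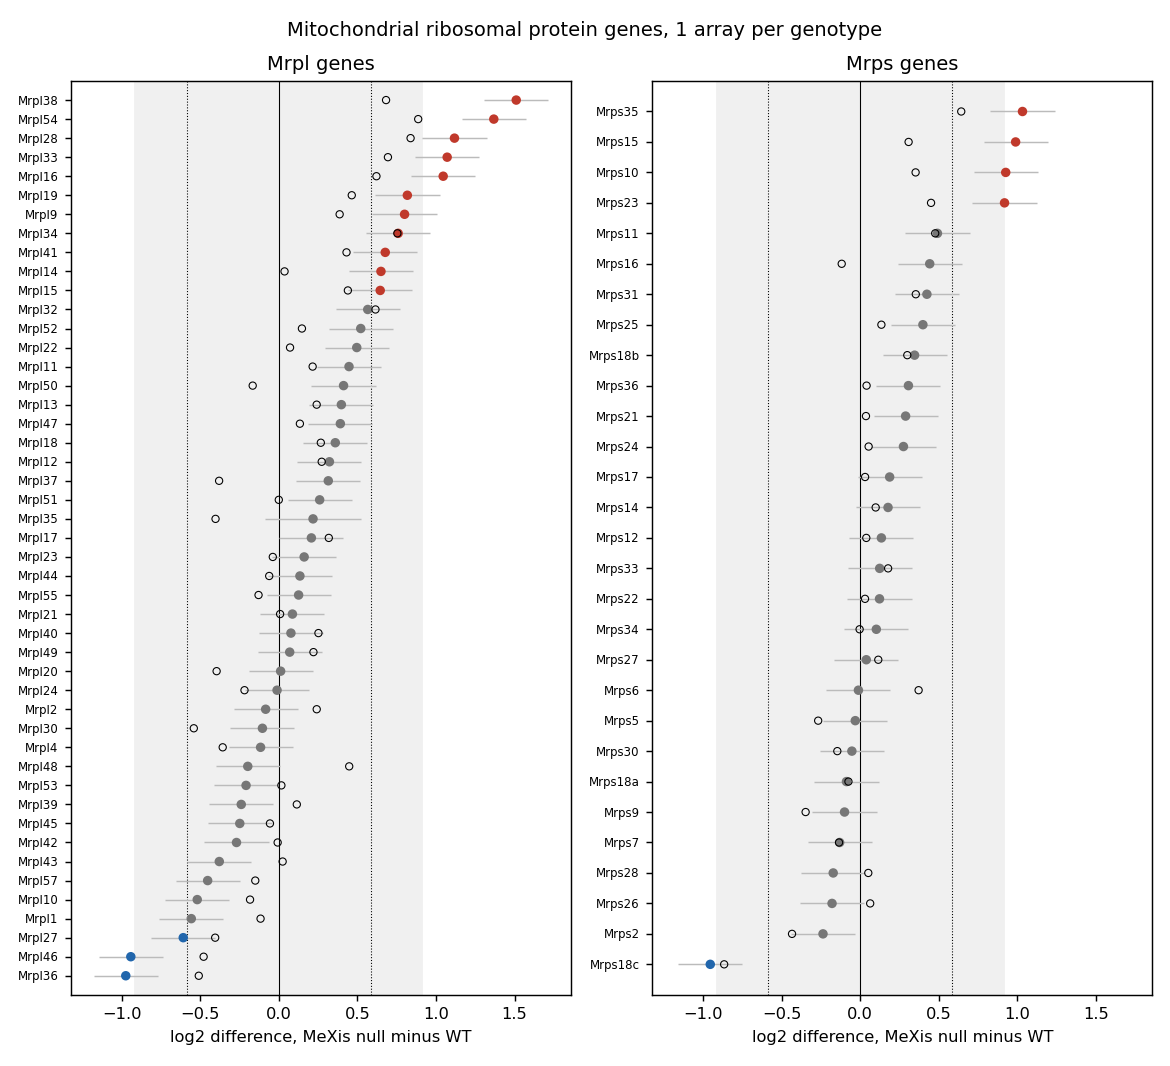
Log2 difference, MeXis null minus WT, of each of the 76 measured Mrp genes, with the 47 Mrpl genes on the left and the 29 Mrps genes on the right. Filled points are red where counted higher (15), blue where counted lower (4) and grey otherwise, bars give 1 scanner error, open circles give the difference after correction for neighbouring spots, dotted lines mark 1.5-fold and the grey band the limit of 0.91 set by replicate spots; most open circles lie nearer to 0 than the filled points at the top.

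For the 29 Mrps genes the median difference was 0.13, and 4 (13.8%) were higher and 1 (3.45%) lower, beside the same 18.2% and 14.2% of all genes. The 4 higher genes were past the limit set by replicate spots. Mrps35, a protein without a bacterial counterpart, had 283 on WT and 617 on MeXis null (1.03). Mrps15, the homologue of a bacterial protein that binds the ribosomal RNA early in assembly, had 4299 and 9089 (0.99), while its second probe gave 0.13. Mrps10 had 1299 and 2629 (0.93). Mrps23 had 5264 and 10598 (0.92), with 0.66 at its second probe.

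The lower gene was Mrps18c, with 5052 on WT and 2776 on MeXis null (-0.95) at its brighter probe and a difference of the other sign at its second probe. Mammals have 3 proteins related to the same bacterial protein, and each ribosome holds them at different places, Mrps18c and Mrps18b in the small subunit and Mrps18a, despite its name, in the large one. Mrps18b had 6653 and 9006 (0.35) and Mrps18a had 3802 and 3810.38 (-0.09, with a scanner error of 0.20). At their brightest probes the 3 relatives thus showed no common direction, and only Mrps18c was counted. This depends on the probe. With the median of each gene's probes all 3 were below 0, at -0.24 for Mrps18c, -0.03 for Mrps18b and -0.28 for Mrps18a, and none was counted.

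Several further small-subunit genes were chosen by their role. Mrps12, the homologue of the bacterial decoding-centre protein at which streptomycin resistance arises, had 4159 and 4862 (0.13). Mrps7, which nucleates the head of the subunit, had 5845 and 5685 (-0.13), with 0.42 at its second probe. Mrps2 had 1752 and 1583 (-0.24), with -0.80 at its second probe. None of these 3 was counted at its brightest probe. Mrps16, Mrps22 and Mrps34 are genes in which mutations cause combined respiratory chain deficiency in people. Their signals on WT and MeXis null were 6340.15 and 9176 for Mrps16 (0.44), 661 and 766 for Mrps22 (0.12) and 5138 and 5875 for Mrps34 (0.10). Mrps27, a member of the pentatricopeptide repeat family of RNA-binding proteins, had 512 and 559.74 (0.04). Mrps36, which had 3089 and 4069 (0.31), is by name a member here, although its protein has since been assigned to the ketoglutarate dehydrogenase complex.

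The differences moved with those of the surrounding spots on the array. For each member spot the median difference of the 100 nearest spots above background ran from -0.65 to 0.83, with a median of 0.16 over the 76 genes. This local value had a median of 0.41 around the 15 higher genes, -0.33 around the 4 lower ones and 0.09 around the others. Over the 76 spots, which share the 2 arrays, Pearson's r between a gene's difference and its local value was 0.73. With the local value subtracted, the Mrp median was 0.05 against -0.03 for all genes, the interquartile range was 0.431 against 0.648, and the spread among spots of the same probe fell to a median SD of 0.33. By the 1.5-fold rule 8 Mrp genes were then higher (11.4% of all genes) and 1 lower (13% of all genes), and none reached 2-fold in either direction, where 3.63% of all genes were higher and 3.44% lower.

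Of the 15 higher genes 7 stayed past 1.5-fold after this correction. They were Mrpl54 (0.89), Mrpl28 (0.84), Mrpl34 (0.75), Mrpl33 (0.69), Mrpl38 (0.68), Mrps35 (0.64) and Mrpl16 (0.62). Mrpl32, a protein whose maturation by a mitochondrial protease is known as a step of ribosome assembly, joined them, with signals of 509 and 802 and differences of 0.57 before and 0.61 after. Mrpl34 hardly moved, its local value being close to 0, whereas Mrpl14 went from 0.65 to 0.04 and Mrps15 from 0.99 to 0.31. Among the lower genes Mrps18c kept its call at -0.87, and Mrpl36, Mrpl46 and Mrpl27 came to -0.51, -0.48 and -0.41. Mrps16 went from 0.44 to -0.12.

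**Figure D3:**
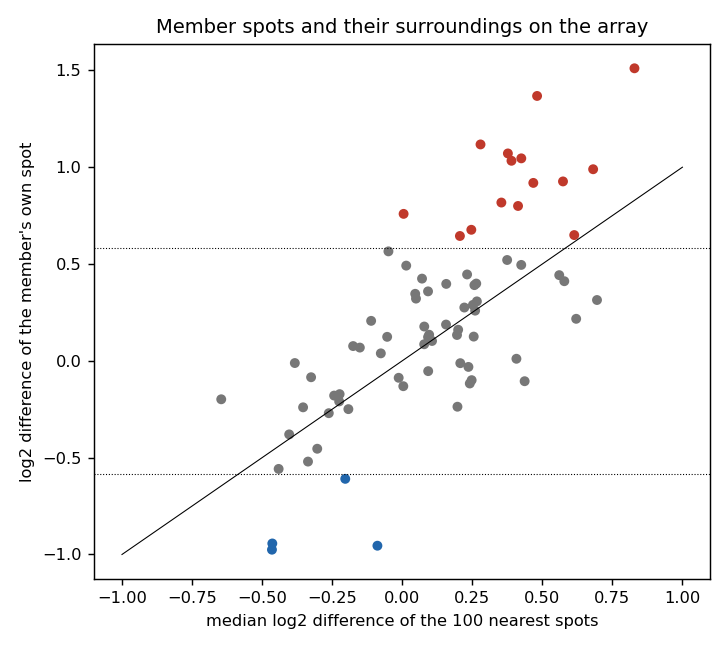
Log2 difference of each of the 76 Mrp genes (y axis) against the median log2 difference of the 100 nearest spots on the array (x axis), coloured as called at 1.5-fold (red higher, blue lower), with the line of equality and dotted lines at 1.5-fold. The points rise from lower left to upper right (r = 0.73), and the 15 red points lie at local values above 0.

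Probes of the same gene gave a further view of the error. Of the 77 genes 30 had more than 1 probe, and 26 had at least 2 that were well above background on both arrays. Within these 26 genes the median range between probes was 0.56, beside 0.69 over the 5194 such genes in all, and the probes had opposite signs in 13 genes (50%, against 54.6% of all). Of the 15 higher genes 5 had several such probes, all above 0 in all 5 and all past 1.5-fold in 4. Of the 4 lower genes 2 had several, and both had probes of opposite signs. These were Mrps18c (-0.95 and 0.48) and Mrpl27 (from -0.61 to 0.20). In 5 genes the range was over 1. Mrpl1 had -0.56 at its brighter probe and 2.31 at a dim one (WT signal 34.97, MeXis null signal 185), Mrps9 had -0.10 and 1.49, and Mrpl13 had 0.40 and -0.76. The 3 probes of Mrps33 ran from -0.77 to 0.81 with 0.12 at the brightest.

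The remaining case, Mrps18c, was of another kind, because its 2 probes cover nearly the same bases. They lie on chr5:101233411-101233470 and chr5:101233418-101233477 (mm9) and share 53 of 60 bases. The first 30 bases of each are shown 5′ to 3′ from the array files, with the shared bases in capitals.
Mrps18c, first probe: tcagataCCGAGAATAAATTTTGTATTTGT
Mrps18c, second probe: CCGAGAATAAATTTTGTATTTGTGAAGTTC
The first probe had 1740.05 on WT and 2589 on MeXis null (0.48), and the second had 5052 and 2776 (-0.95), a gap of 1.44 between probes offset by 7 bases, which was 1.05 after correction for neighbouring spots. The signals of these near-identical probes thus went in opposite directions, and the call of Mrps18c as lower rests on the brighter one.

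A pair of further Mrps genes had overlapping probes, shown in the same way. Those of Mrps18b, on chromosome 17, share 55 bases and those of Mrps21, on chromosome 3, share 40.
Mrps18b, first probe: ggtgtGTCCCTGATTTAAACCTCCTGGCTC
Mrps18b, second probe: GTCCCTGATTTAAACCTCCTGGCTCAGCTT
Mrps21, first probe: ctttctttatccagccaagtTCTGTTACTT
Mrps21, second probe: TCTGTTACTTTTCTCTATAATAAAAACTCC
Differences at the Mrps18b pair were 0.35 and -0.03, a gap of 0.38. For Mrps21 they were 0.29 and -0.20, a gap of 0.49. After correction for neighbouring spots the gaps were 0.64 and 0.45. The Mrps21 probes then stood at 0.04 and 0.49, so their order was reversed, while those of Mrps18b kept theirs (0.30 and -0.34). The bases shared within each pair thus ranged from 40 to 55 of 60.

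**Figure D4:**
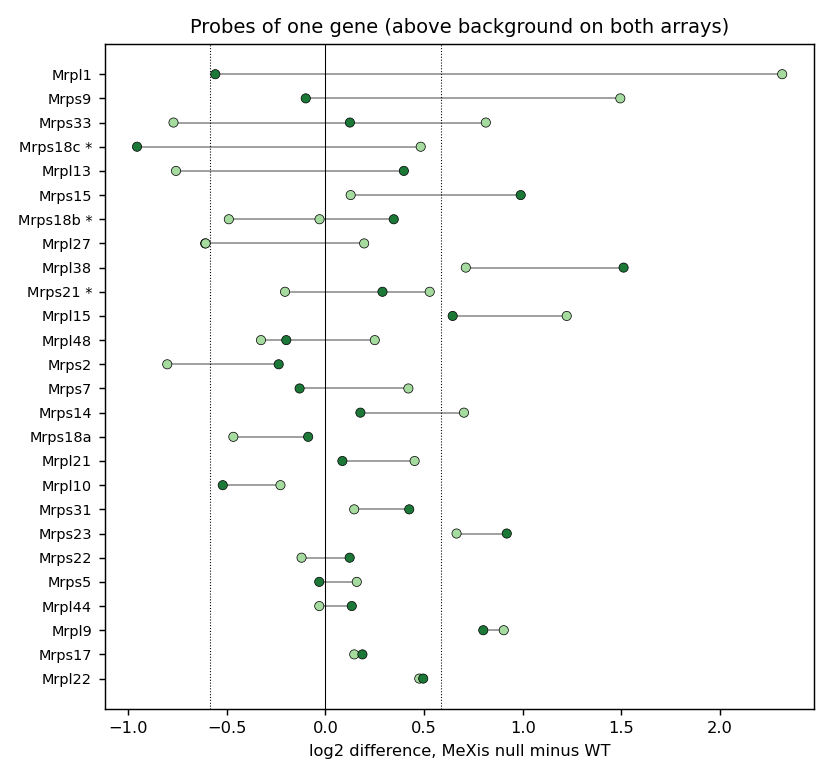
Log2 difference, MeXis null minus WT, of each probe of the 26 Mrp genes with at least 2 probes well above background on both arrays, ordered by their range; dark points are the brightest probe, which represents the gene, an asterisk marks genes with overlapping probes, and dotted lines mark 1.5-fold. The range is over 1 in Mrpl1, Mrps9, Mrps33, Mrps18c and Mrpl13, and the points of 13 genes lie on both sides of 0.

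Many of these genes start next to another gene that is read from the opposite strand. RefSeq promoter windows (GRCm38.p6, 250 bases before to 50 after the start) were found for 68 of the 77 genes. In 24 of the 68 (35.3%) the window overlapped one of a gene on the other strand, against 12.5% of 17492 protein-coding genes. The core of the site for ETS factors such as GABP, a known regulator of mitochondrial genes, is CCGGAAG, and it was in 25 windows (36.8%) on either strand, against 12.9% of all. The YY1 core CCATCTT was in 13 (19.1%, against 7.18%), the half-site of NRF1, TGCGCA, in 20 (29.4%, against 11%), the SP1 GC box GGGCGG in 34 (50%, against 49.2%), the E-box CACGTG in 5 (7.35%, against 8.91%) and TATAAA in 5 (7.35%, against 14.8%). GC content was similar, with medians of 58.0% and 56.3%. These matches describe the letters only. The median difference was 0.13 over 24 measured genes with the ETS core and 0.16 over 43 without, and 0.05 over 24 with an overlapping neighbour and 0.22 over 43 without.

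There were 23 such pairs, and in 20 both genes were above background on both arrays. The 2 genes had the same sign in 11 pairs and opposite signs in 9, with a median gap of 0.42, and in no pair were both counted as higher or lower. The windows of 3 Mrp genes are shown to let a reader see what such a pair shares, 5′ to 3′ on the Mrp gene's strand, with matches to the ETS core, the YY1 core and the GC box in capitals, on either strand. Of the other motifs none was in these windows.
Mrps11, chr7:78782881-78783180, plus strand: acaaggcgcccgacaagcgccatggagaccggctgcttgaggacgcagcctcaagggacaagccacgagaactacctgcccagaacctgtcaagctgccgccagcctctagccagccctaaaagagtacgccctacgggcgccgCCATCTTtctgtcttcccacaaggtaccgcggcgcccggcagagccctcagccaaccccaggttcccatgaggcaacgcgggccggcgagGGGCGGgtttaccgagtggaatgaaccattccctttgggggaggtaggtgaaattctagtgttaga
Mrps12, chr7:28741772-28742071, minus strand: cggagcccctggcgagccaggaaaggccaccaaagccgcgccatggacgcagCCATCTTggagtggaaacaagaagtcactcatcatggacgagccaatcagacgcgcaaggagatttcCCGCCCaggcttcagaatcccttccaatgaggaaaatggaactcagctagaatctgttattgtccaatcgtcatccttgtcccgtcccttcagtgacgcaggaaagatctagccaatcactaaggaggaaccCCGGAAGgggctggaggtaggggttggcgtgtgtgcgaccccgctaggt
Mrpl43, chr19:45006393-45006692, minus strand: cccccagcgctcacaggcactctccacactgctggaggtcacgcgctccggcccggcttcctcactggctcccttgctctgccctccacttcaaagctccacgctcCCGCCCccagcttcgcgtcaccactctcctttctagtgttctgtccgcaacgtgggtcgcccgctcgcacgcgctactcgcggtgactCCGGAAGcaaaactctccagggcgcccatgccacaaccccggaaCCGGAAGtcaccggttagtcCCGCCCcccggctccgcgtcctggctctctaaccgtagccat
The Mrps11 window shares 141 bases with that of Mrpl46, so here a small-subunit and a large-subunit gene start side by side. Mrpl46 was at -0.94, while Mrps11 had 369 on WT and 553 on MeXis null (0.49), and after correction for neighbouring spots they were at -0.48 and 0.48. Mrps12 shares 246 bases with Sars2, the mitochondrial seryl-tRNA synthetase, which had 261 and 312 (0.17), beside 0.13 for Mrps12. Mrpl43 shares 215 bases with Twnk, the helicase that unwinds mitochondrial DNA (Peo1 on the array), which was dim, with 32.1 and 84.1 (1.30), beside -0.38 for Mrpl43. Elsewhere, Psma2, a proteasome subunit next to Mrpl32, was higher (0.87), but not after correction for neighbouring spots (0.29). Klc4 next to Mrpl2 and Ighmbp2 next to Mrpl21 were lower (-0.92 and -0.93, corrected -0.90 and -0.66).

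Other parts of mitochondrial translation were set beside the Mrp genes by the same rule. For each list that follows, the shares over all genes were 18.2% higher and 14.2% lower. After correction for neighbouring spots they were 11.4% and 13%. The 6 mitoribosomal proteins with other symbols had a median of 0.00 and none was counted, from Ict1, which frees stalled ribosomes (-0.40), and Dap3, a GTP-binding protein of the small subunit (-0.13), to Chchd1 (0.17) and Gadd45gip1 (0.18). With the correction their median was 0.16, Dap3 was at 0.43, and again none was counted. The translation factor list also held genes that are not such factors, among them Slirp, Lrpprc and Oxa1l. Of its 15 genes 2 (13.3%) were higher, Slirp (0.82) and the release factor relative Mtrf1 (0.77). The 1 lower gene (6.67%) was Gfm2, a factor of ribosome recycling (-0.69). Oxa1l, which inserts the products into the membrane, was at -0.57, and the list's median was 0.13. After correction for neighbouring spots Slirp (0.47) and Mtrf1 (0.49) were no longer counted, and the list had 1 gene higher, Tsfm (0.91), and 2 lower, Gfm2 (-0.66) and Lrpprc (-0.90), with a median of 0.02. The ribosome assembly list had 8 of 29 higher (27.6%) and 4 lower (13.8%), with a median of 0.22. Its highest genes were Fastkd2 (1.78) and Wbscr16 (1.25) and its lowest Ngrn (-0.89) and Rpusd4 (-0.85), all 4 known to work on the large-subunit ribosomal RNA. Corrected in the same way that list had a median of -0.09, with 6 higher and 1 lower.

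The list of synthetases that charge mitochondrial tRNAs also held genes that are not synthetases, namely Qrsl1, Gatb and Gatc. Its 19 measured genes had a median of 0.04. Of these 3 were higher, among them Fars2 (1.104), and 2 lower, Wars2 (-1.56) and Qrsl1 (-0.61). When corrected 4 were higher and 1 lower. Genes of mitochondrial DNA transcription and maintenance had 6 of 17 higher, among them Peo1 (1.30) and Polg2, the accessory subunit of the DNA polymerase (1.05). Supv3l1 and Ssbp1, an RNA helicase and the single-strand binding protein, were lower at -0.91 each. After correction for neighbouring spots 1 of these 17 was higher and 0 lower. Of the 11 regulators of mitochondrial biogenesis none was counted, from Esrra (0.49) and Ppargc1a (0.31) to Tfe3 (-0.39) and Nrf1 (-0.48). Their median was 0.08, and -0.18 with the correction, where again none was counted.

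Among the products of the mitochondrial ribosome are the proteins of the 10 mitochondrially encoded transcripts that the array measured. These transcripts had a median of 0.36, with 4 higher and 1 lower. They ran from ND4L (1.97) and ND3 (1.71) to COX2 (-0.49) and COX1 (-1.16). Such transcripts come from long shared precursors. Their probes gave both signs, the reason for which was not tested. After correction for neighbouring spots the median was 0.07 with 2 higher and 1 lower. These products assemble with nuclear-encoded subunits of the respiratory chain and ATP synthase. The list of such genes was not limited to subunits, since it also held Atp5sl, which is not one. Its median was 0.10, with 12 of 86 higher and 6 lower and an interquartile range of 0.574. The list's extremes were Cox6b2 (1.61), Ndufa4 (1.34), Cox6b1 (-1.18) and Atp5sl (-1.19). Corrected for neighbouring spots, 5 were higher and 1 lower, the median was 0.07, and Cox6b1 (-0.49) and Atp5sl (-0.34) were no longer counted.

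The cytosolic ribosome translates the Mrp messages themselves. The list of its proteins was taken by symbol and also held relatives such as Rps4l and Rps27l, the 2 genes counted lower. The genes of this list had a median of 0.18, beside 0.17 for the Mrp genes. Their interquartile range was 0.308 against 0.559. Of 76 genes 5 (6.58%) were higher and 2 (2.63%) lower, against 15 (19.7%) and 4 (5.26%) of 76 Mrp genes. Over all genes the shares were 18.2% and 14.2%, so the Mrp share higher was near that of all genes. Rpl4 (2.05) and Rps24 (1.55) were the highest and Rps4l (-0.68) and Rps27l (-0.74) the lowest. Corrected for neighbouring spots, the medians were 0.16 and 0.05 and the interquartile ranges 0.243 and 0.431. The counts were then 6 higher (7.89%) and 0 lower against 8 (10.5%) and 1 (1.32%), where 11.4% and 13% of all genes were. Rps4l (-0.33) and Rps27l (-0.23) were no longer counted. No test of the difference between these lists was possible.

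**Figure D5:**
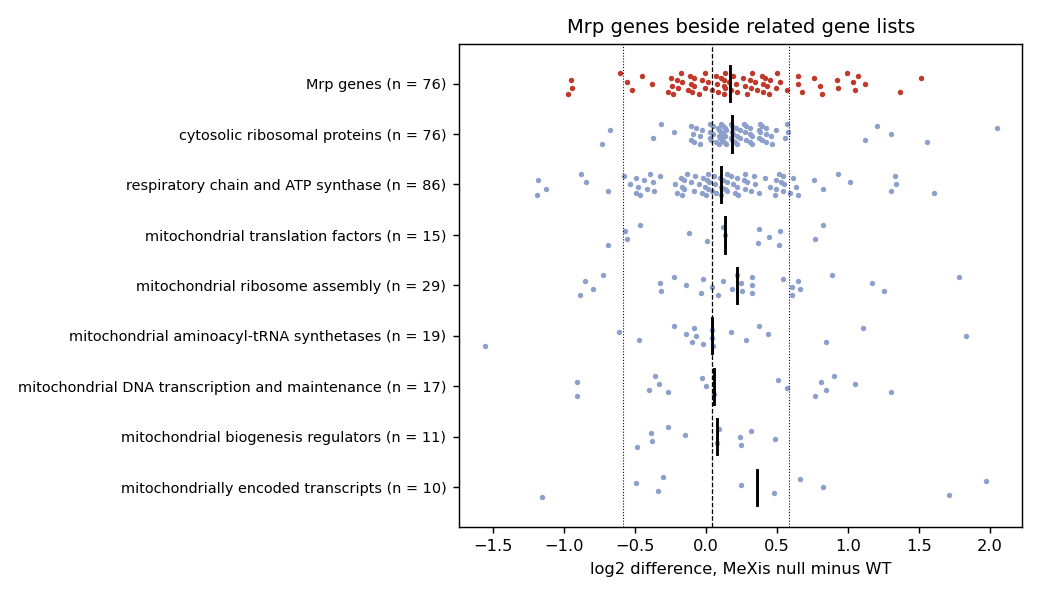
Log2 difference, MeXis null minus WT, of each gene above background on both arrays (points, spread vertically for visibility only) in the Mrp genes (red) and 8 related lists (blue), with the list's median (bar), the median of all genes (dashed line, 0.04) and 1.5-fold limits (dotted). The 6 mitoribosomal proteins with other symbols are not plotted. The plotted medians run from 0.04 to 0.36, and the cytosolic ribosomal proteins have an interquartile range of 0.308 against 0.559 for the Mrp genes.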

How the data were processed

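Total RNA, extracted with Trizol and columns (per the labels' protocols), carried Cy3 and was measured on 1 one-colour Agilent array per genotype. The deposited intensity of each spot is the scanner's linear signal, which per the file headers was background-subtracted and detrended by Agilent Feature Extraction (version 11.5.1.1), and the series matrix equalled it in all 62976 features (medians 12.9 and 17.0), with 0 columns outside the samples. The file headers name mm9 as the build of the probe coordinates. Both arrays shared a slide and scan day.

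Control spots and outlier-marked spots (305 on WT, 205 on MeXis null) were left out, and 0 spots were saturated. Values are log2 signal minus the array's 75th percentile, taken over probes that both arrays placed well above background. Spots of a probe were averaged, and a gene is the probe whose log2 signal is highest on average. For the local correction, the median difference among the 100 nearest spots detected on both arrays was taken off each spot's difference.

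The members and gene lists were chosen with earlier results of these data known. Genes named with values are the 6 highest and 6 lowest members, the 4 brightest on WT, those whose probes differ by over 1, members fixed by role, and the 2 highest and 2 lowest of each list. The value of 1 gene that this rule names is not reported here. Other members and list genes, and the promoter pairs, were named after their values were seen. Yars2 was in both the assembly and the synthetase list. Because no protein table was used, probe positions in coding or untranslated sequence were not determined, and only 30 bases of a probe are printed. Promoters are from RefSeq (GRCm38.p6), a build apart from the probe coordinates. The NRF1 half-site was searched in place of a longer NRF1 motif after counts of the longer one had been seen. Alternatives were normexp (offset 50), quantile, loess (span 0.3), median and all-probe percentile scaling, no filter or signals of at least 100, a median over each gene's probes, use of outlier-marked spots, the matrix values, and other thresholds. Python 3.11.15, pandas 2.3.3, statsmodels 0.14.6, R 4.3.3 and limma 3.58.1 (normexp) were used, and the steps were tested on simulated data.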

Additional observations from a re-analysis of the deposited data

How the results depend on the processing

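With 1 array per genotype nothing could be left out. No paired analysis was possible because each genotype has 1 sample. The Mrp median moved from 0.17 to 0.31 with normexp, 0.093 with median scaling and 0.052 with the local surface correction, and the higher count from 15 to 26 with normexp and 8 with the local correction, which left 1 lower gene. The share higher with normexp was 34.2%, against 16% of all genes. Normexp starts from signals that were not detrended. The Mrps median became 0.36 with normexp, and the Mrpl median 0.12 with loess and 0.071 with the local correction. Thresholds gave 6 and 0 genes higher and lower at 2-fold, where 7.34% and 4.77% of all genes were. Past the limit set by replicate spots they gave 9 and 3, where 9.08% and 6% of all genes were. At 3-fold they gave 0 and 0, but no share of all genes is given here for that threshold. Median scaling gave 13 higher and 6 lower, so that 68.4% rather than 78.9% of calls were higher. The local correction made it 88.9%, from 8 higher genes (10.5%) and 1 lower (1.32%). Of all genes 18.2% were higher and 14.2% lower in the main setting, 15.5% and 17.1% with median scaling, and 11.4% and 13% with the local correction. Without a filter on dim probes the median of all genes was 0.46, above the Mrp median of 0.17, and under quantile, loess, median and all-probe scaling it was between -0.01 and -0.04.

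Most alternatives left the values of the 34 named genes as they were or shifted all by 1 small constant, so their stability there says little, and 15 values moved beyond the spread of replicate spots. Mrpl1, not counted at -0.56, was counted lower under quantile, loess, median and all-probe scaling (-0.59 to -0.63) and higher with the median of a gene's probes. With that median Mrps18c was -0.24, Mrpl1 0.88, Mrps9 0.70 and Mrpl13 -0.18. With normexp Mrpl36 was -1.67, Mrpl43 -1.01, Mrpl13 1.26, Mrps18a 1.07, Mrps22 0.90, Mrps2 -0.66 and Mrps16 0.61. The causes were not tested.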
